A study of Glycyrrhiza uralensis with 48 samples.

Results

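In licorice seedlings, 60 genes were selected on their measured levels because their underground level rose with drought alone and with salt alone but not when both stresses were combined. They are 60 of 38463 genes in the table and of 18732 eligible genes, those with a mean of 2 FPKM or more in underground controls. FPKM (fragments mapped to a transcript, scaled for its length and for the size of the library) is a level per length. With L as the mean log2(FPKM + 1) of a group, each gene's change was L under drought (D), salt (S) or salt-drought (SD) minus L in the control (CK), in underground parts without silicate. A gene qualified if it was above 0 in D and in S and at 0.3 or lower in SD, and 3015 genes did so, 16.1% of those eligible. The 60 with the largest rule value, the smaller of the D and S changes minus the SD change, were kept.

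Glycyrrhiza uralensis is a medicinal licorice of dry and saline land whose roots and underground stems are the source of the saponin glycyrrhizin. Drought lowers the water a root can take up. Salt does so osmotically and also brings in sodium and chloride, and plants under both at once often show responses that neither stress gives alone. Silicon is deposited in plant tissue and is widely studied as an aid under both stresses.

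All seedlings grew for 45 days in sterilised desert sand. CK was given distilled water, D was held at 35 to 45% of saturation moisture, S received 75 mM NaCl, and SD both. Each condition was also run with 2 mM Si supplied as K2SiO3 (CK+Si, D+Si, S+Si, SD+Si), a salt that also supplies potassium. Aerial and underground parts make 16 groups of 3 libraries, 48 in all. Separate pots or plants are not stated for the replicates, so each p-value reflects only the spread among the libraries at hand, which may be technical. No gene name or function is paired with the identifiers in the files, so members are described by identifier, position and behaviour, and neither part could be checked against named markers.

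Libraries of an underground group correlated at 0.960 to 0.970 in CK and CK+Si and at 0.922 to 0.935 in S, the group with the lowest value. Aerial RNA was looked for in underground libraries with 5 marker genes that were abundant in every aerial group and at most 0.5 FPKM in underground CK+Si. Their median in underground libraries 1, 2 and 3, as a percentage of the aerial CK+Si level, was 0.50, 0.0389 and 0% in CK, and 1.15, 1.09 and 0.790% in D. It was 0.575, 0 and 0.990% in S, and 0.0988, 5.48 and 0.285% in SD. The summed level of the 5 ran from 0.722 to 5.24 FPKM in CK, 6.17 to 11.3 in D, 0.203 to 9.50 in S and 1.49 to 46.7 in SD. Of the 5, 2 and 3 were at 0 in CK libraries 2 and 3, 3 in S library 2 and 1 in SD library 1. SD library 2, all 3 D libraries and S libraries 1 and 3 thus had a higher marker level than any control library.

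In the libraries that chose them, the members were mostly moderate in level. Their mean in CK ran from 2.19 to 596 FPKM with a median of 9.05, and 34 of 60 lay under 10. The D change had a median of 0.68 on the log2(FPKM + 1) scale (range 0.03 to 2.69) and the S change one of 0.56 (0.01 to 2.09). The SD change had a median of -0.57 (-2.76 to 0.17), so that 57 of the 60 were below the control mean in SD and 3 lay between 0 and 0.3. All of these values are what the rule selected and carry no test.

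Few members had a clear rise under both stresses. Only 5 rose by at least 1 log2 unit in both, 19 did so in D and 7 in S, and 13 rose by less than 0.5 in each. All 3 D libraries were above all 3 CK libraries in 25 members, where 12.6% of eligible genes showed that, and all 3 S libraries were in 14 (18.1% of eligible genes). Both held in 11 (5.98%). The fall from the single stresses to SD was cleaner: all 3 D libraries exceeded all 3 SD libraries in 44 members (15.7%), all 3 S libraries did in 34 (5.79%), and both did in 26 (3.34%). All 6 single-stress libraries exceeded all CK and all SD libraries in 6 members (0.283%). SD was below CK without overlap in 13 (19.6%). The rule used each of these contrasts.

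The groups separated in Glyur000232s00013783 (Scaffold00232, 240936 to 241625, plus strand, 2 exons), which has a rule value of 3.29, next to the largest. It stood at 7.46, 13.3 and 6.80 FPKM in CK, at 35.6, 39.6 and 25.6 in D and at 29.7, 31.4 and 20.7 in S. In SD it was at 2.30, 1.66 and 1.62, below every control library, and none of the 4 groups overlapped except D with S. The largest rule value, 3.34, belonged to Glyur006247s00046289 (Scaffold06247, 2315 to 2850, minus strand, 3 exons), whose libraries scattered far more. It was at 75.3, 41.0 and 25.1 FPKM in CK, at 281, 58.3 and 97.2 in D, and at 99.9, 28.4 and 91.6 in S. In SD it was listed at 0 in library 1, with 34.3 and 6.57 in the other two, and both single stresses overlapped the control.

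An exact 0 in this table can be a failed estimate. SD library 1 was listed at 0 beside at least 2 FPKM in both other SD libraries for 3 members, which hold ranks 1, 5 and 6 by rule value. With such zeros treated as missing, a setting chosen after seeing the data, their rule values fell from 3.34, 1.91 and 1.90 to 1.99, 0.0056 and 0.34, and 57 of the 60 members were still chosen. For the member ranked 5 that setting also set aside a 0 in CK library 3, where the other controls were at 86.3 and 79.1 FPKM. Its D libraries, 72.2 to 76.4, and its S libraries, 47.8 to 54.8, lay below both of these controls. The member ranked 3, with a rule value of 2.17, was listed at 0 in SD libraries 1 and 3, a case that setting does not alter. Its SD library 2, at 12.02 FPKM, lay within the range of its D libraries, 6.78 to 12.8. At the other end of the list, the genes ranked 59 and 60 had rule values of 0.7492 and 0.7490, and the genes ranked 61 and 62, just outside, 0.7486 and 0.7477, so the border falls within a dense run of genes. The choice also leaned on single libraries: without S library 1, 32 of the 60 were chosen again, against 40 to 55 without any other of the 12.

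**Figure D1:**
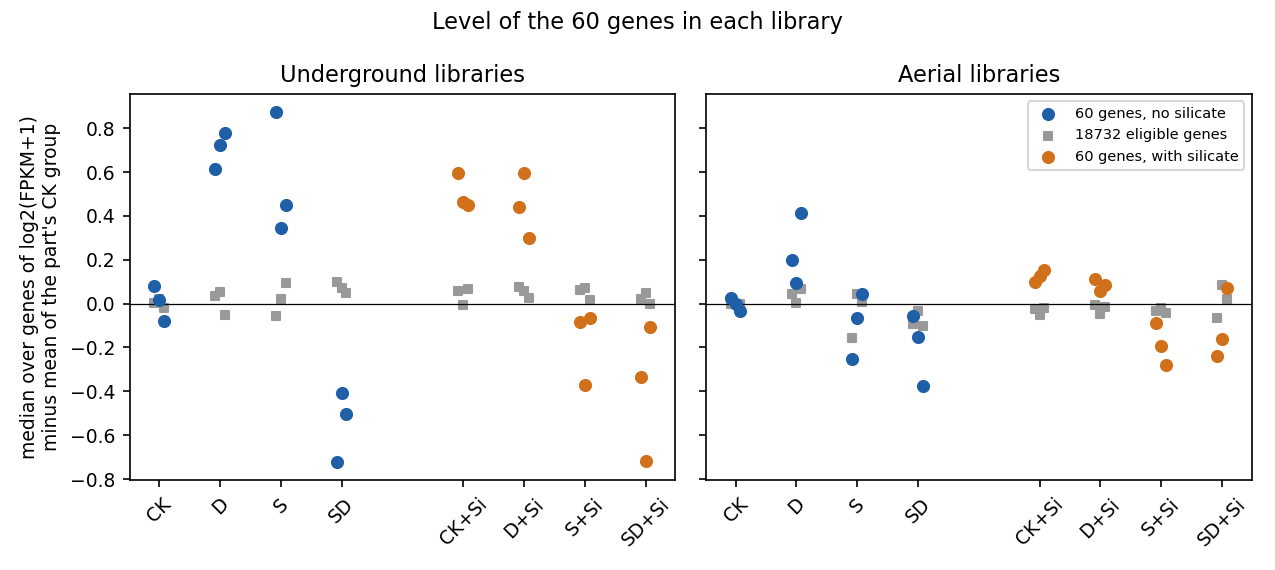
Median over the 60 genes of each library's log2(FPKM + 1) minus the mean of the CK group of its part (vertical axis), by group (horizontal axis); each circle is 1 library, and grey squares are the same median over the 18732 eligible genes. Underground without silicate the D libraries lie at 0.61 to 0.78 and the SD libraries at -0.72 to -0.41, which the rule chose. With silicate CK+Si and D+Si lie together at 0.30 to 0.59, and S+Si and SD+Si are all below 0. The zero line underground is the CK group without silicate, which the rule used. Heights of the silicate-fed libraries above or below it thus also depend on the choice, and only their positions relative to each other do not use that group.

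Silicate-fed underground parts are the libraries in which the pattern could be tested, since the rule did not use them. There 14 members were lower in S+Si than in CK+Si (8.24% of all genes were) and 0 were higher (8.88%), although a rise in S without silicate had chosen them. In SD+Si 15 were lower than in CK+Si (8.54% of all genes) and 13 lower than in D+Si (4.68%). In D+Si 0 were higher than in CK+Si, where 0.0858% of all genes were, so that number says little about the members. In SD+Si 1 was lower than in S+Si (0.151%). Calls are from limma, with Benjamini-Hochberg adjustment over all 24478 genes tested underground and a threshold of 0.05, and all 60 members were tested.

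In D+Si against CK+Si, 0 of 60 members were called by limma in either direction, where 0.0858% of all genes were called higher and 0.940% lower. At an unadjusted p under 0.05 there were 3, or 5% of the members, against 9.68% of all genes, and 1 member was called in a fit of these 2 groups alone. The median change of the members was -0.02 on the log2 scale, against 0.02 over all genes tested, with 28 members above 0 and 32 below.

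In S+Si against CK+Si, 0 members were called higher and 14 lower, with 8.88% and 8.24% of all genes called in those directions. The median change was -0.81 against 0.03 over all genes tested, and 47 of 60 were below 0. Without CK+Si library 1 there were 9 calls, and 3050 over all genes instead of 4191. Without silicate the same members had been picked for a rise in S, so the median of their salt change has opposite signs at the 2 silicate levels. That difference was not tested, because 1 side of it was used to choose the genes. Glyur000949s00028887 (Scaffold00949, 24522 to 25589, minus strand, 1 exon) shows it. With silicate it was at 66.5, 51.1 and 31.8 FPKM in CK+Si and at 9.35, 19.3 and 14.9 in S+Si, a change of -1.70 (SE 0.43, limma adjusted p = 0.0115) with no overlap. Without silicate it was at 35.3, 28.2 and 25.4 in CK and at 52.7, 37.2 and 33.2 in S, where the groups overlapped. Its call in S+Si was lost without CK+Si library 1 or S+Si library 1 (adjusted p = 0.0545 and 0.0622).

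The largest fall in S+Si was in Glyur000544s00017416 (Scaffold00544, 1594 to 2659, plus strand, 2 exons). It went from 30.2, 17.5 and 8.58 FPKM in CK+Si to 0.633, 1.35 and 2.56, a change of -2.89 (SE 0.94, limma adjusted p = 0.0413). The groups did not overlap, but the call was lost in 7 of 11 alternatives, 5 of which left out 1 of CK+Si libraries 1 and 2 or S+Si libraries 1, 2 and 3 (adjusted p from 0.0531 to 0.132). Its level was also uneven in untreated controls, at 36.9, 17.7 and 3.72 FPKM. This gene is richer in aerial parts, where its mean was 249 FPKM in CK+Si and 309 in S+Si. The part of aerial RNA in its underground values was not tested.

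In SD+Si against CK+Si, 0 members were called higher and 15 lower, where 5.20% and 8.54% of all genes were. The median change was -0.79 (0.01 over all genes tested), and 54 of 60 were below 0. The largest fall was in Glyur002794s00040886 (Scaffold02794, 28540 to 29706, minus strand, 1 exon), which stood at 70.2, 77.2 and 69.9 FPKM in CK+Si and at 13.1, 10.03 and 20.3 in SD+Si, a change of -2.30 (SE 0.24, limma adjusted p = 3.32e-06). Next was Glyur000047s00003967 (Scaffold00047, 112476 to 112793, minus strand, 1 exon), at 40.7, 59.3 and 37.0 in CK+Si and 7.62, 5.56 and 17.1 in SD+Si, a change of -2.18 (SE 0.34, limma adjusted p = 0.000222). Neither gene's groups overlapped, and both calls held in all 11 alternatives. Both genes are richer in aerial parts. There the mean of Glyur002794s00040886 was 642 FPKM in CK+Si and 273 in SD+Si, and that of Glyur000047s00003967 was 148 and 75.0. The part of aerial RNA in their underground values was not tested.

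In SD+Si against D+Si, 13 of 60 were called lower and 0 higher, against 4.68% and 2.79% of all genes (7.47% in either direction), with a median change of -0.91 (-0.03 over all genes tested) and 54 of 60 below 0. The smallest adjusted p was that of Glyur000145s00010142 (Scaffold00145, 151924 to 162634, plus strand, 22 exons, overlapping a gene on the other strand), at 10.9, 13.6 and 12.5 FPKM in D+Si and 4.58, 3.93 and 4.76 in SD+Si (-1.29, SE 0.13, limma adjusted p = 2.79e-05). Its groups were far apart, and its S+Si libraries, at 6.67, 6.10 and 6.11, lay between them. Glyur002794s00040886 was at 50.5, 53.6 and 53.1 in D+Si, again clear of SD+Si (-1.84, SE 0.24, limma adjusted p = 0.000155). The largest change was in Glyur001945s00040523 (Scaffold01945, 16195 to 17362, minus strand, 3 exons), a gene of low underground level at 11.3, 7.33 and 5.88 in D+Si and 0.889, 1.38 and 0.564 in SD+Si (-2.22, SE 0.47, limma adjusted p = 0.00791). This gene is richer in aerial parts, where its mean was 163.7 FPKM in D+Si and 17.2 in SD+Si. The part of aerial RNA in its underground values was not tested. With the 2 groups alone in the fit, 6 members were called, and 427 over all genes instead of 1829.

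SD+Si and S+Si were hardly apart. Of 60 members 1 was called lower and 0 higher (0.151% and 0.323% of all genes), and the median change was -0.13 (-0.04 over all genes tested). The 1 member was Glyur002949s00046127 (Scaffold02949, 8636 to 9781, plus strand, 1 exon, overlapping a gene on the other strand). It stood at 23.4, 31.0 and 35.2 FPKM in S+Si and at 9.99, 7.17 and 21.3 in SD+Si (-1.27, SE 0.26, limma adjusted p = 0.0471), without overlap. This gene is richer in aerial parts, where its mean was 394 FPKM in S+Si and 308 in SD+Si. The part of aerial RNA in its underground values was not tested. Its call was lost in 8 of 11 alternatives, among them those without any 1 of S+Si libraries 1, 2 and 3 or SD+Si libraries 1 and 2 (adjusted p from 0.0681 to 0.235), and without SD+Si library 3 there were 3 calls, while those over all genes went from 116 to 730.

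**Figure D2:**
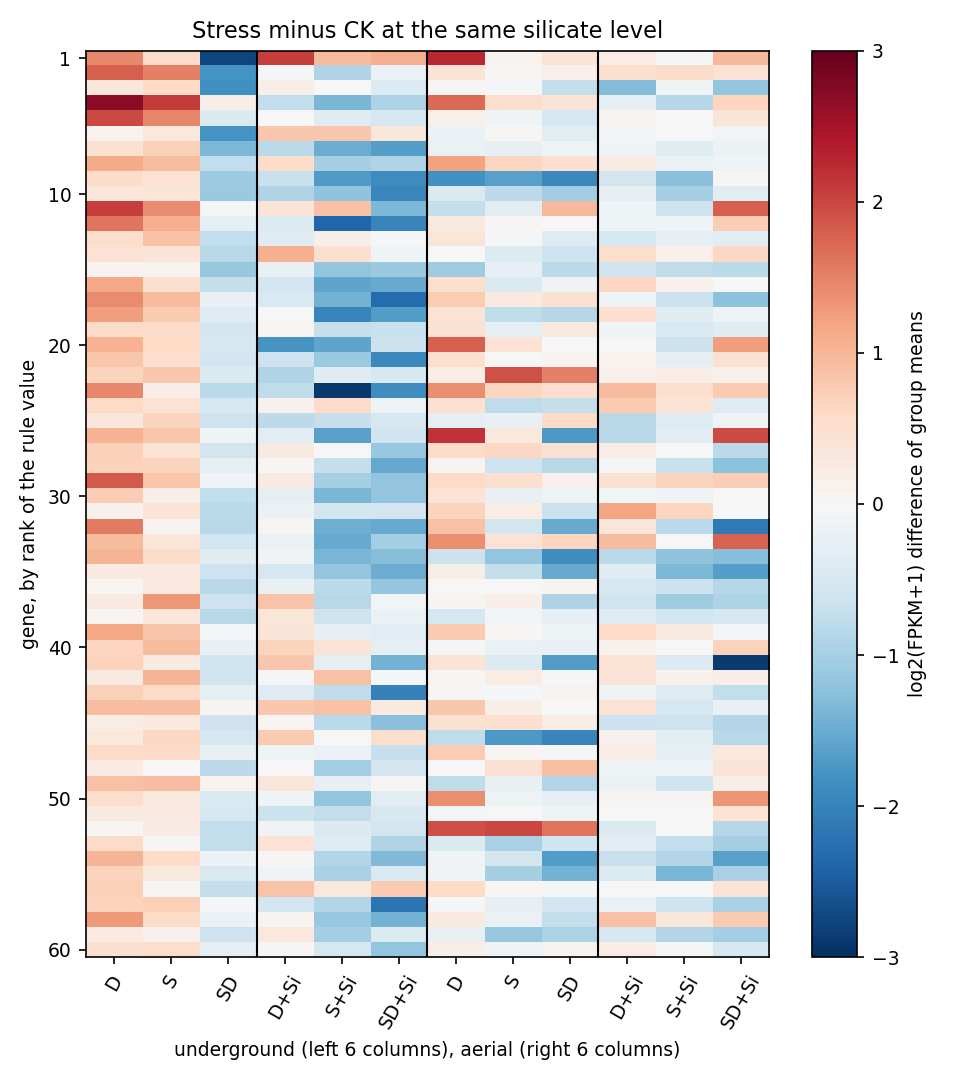
Difference of group means of log2(FPKM + 1), stress minus CK of the same part and silicate level (colour, red higher and blue lower, saturated at 3 and -3), for the 60 genes in order of rule value (rows) and 12 stress groups (columns). The first 3 columns chose the genes. In the next 3, silicate-fed underground parts, the medians are -0.02 in D+Si, -0.81 in S+Si and -0.79 in SD+Si.

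Set by the conditions of the rule, 7 of the 60 members rose in D+Si and in S+Si and stayed at 0.3 or lower in SD+Si, against 24.7% of the eligible genes. SD+Si was below both D+Si and S+Si in 31 members and in 37.0% of eligible genes, and the median rule value in these libraries was 0.04 (-0.07 over eligible genes). For Glyur000232s00013783, whose groups separated without silicate, the silicate-fed libraries were at 18.5, 18.2 and 22.9 FPKM in CK+Si, at 21.7, 13.1 and 24.8 in D+Si, at 13.1, 9.55 and 8.11 in S+Si, and at 14.1, 21.0 and 16.5 in SD+Si. Its SD+Si level overlapped both D+Si and CK+Si. Its S+Si level was below CK+Si (-0.91, SE 0.25, limma adjusted p = 0.0197).

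The levels with and without silicate differed in the direction opposite to that in which the rule had chosen the members. Unstressed, 50 of 60 members had a higher mean with silicate than without, as did 58.4% of eligible genes (median difference 0.45 on the log2 scale, 0.04 over eligible genes). In D 17 of 60 were higher with silicate (median -0.27), in S 8 (-0.77) and in SD 37 (0.23). Of eligible genes, 62.0% were higher with silicate in D (median 0.05), 54.7% in S (0.03) and 39.3% in SD (-0.06). Glyur002794s00040886 is an example, at 26.5, 21.5 and 20.1 FPKM in CK and about 70 or more in every CK+Si library. These differences are given without a test, since the libraries without silicate chose the members, and nothing is read from them about silicate.

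**Figure D3:**
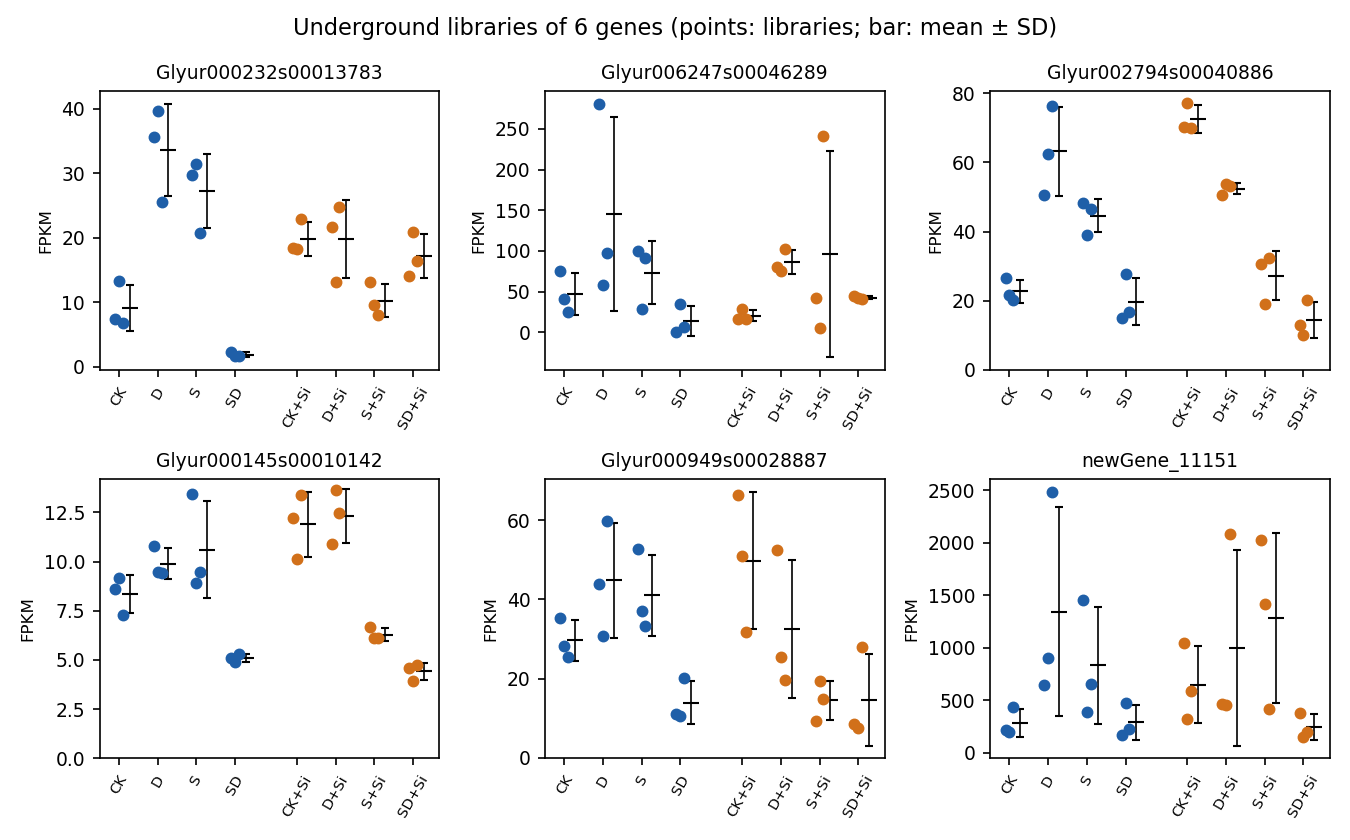
FPKM of 6 named genes in the 24 underground libraries (points; blue without silicate, orange with silicate) with the mean ± SD of each group of 3. Glyur000232s00013783 separates SD from D and S without silicate, and with silicate SD+Si overlaps D+Si, whereas Glyur002794s00040886 and Glyur000145s00010142 fall from D+Si to SD+Si without overlap.

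The members were uneven between replicate libraries also where the rule had not looked. In the silicate-fed underground libraries the median within-group SD on the log2(FPKM + 1) scale was 0.57 for the members and 0.19 for eligible genes. In structure they were short: the median exon length of the 53 members with a gene model was 792 nt, against 1489.5 nt for 18266 eligible genes with one, and 41.5% against 13.3% had under 600 nt of exon. The median exon number was 2 against 5, and 20 of 53 (37.7% against 13.4%) had a single exon. A further 7 of the 60 (11.7%, against 2.49% of eligible genes) are rows labelled as new genes, with no coordinates. Of the 53, 10 overlap another gene from start to end, introns included (18.9% against 21.7%). Overlap of exons was not computed. Where exons do overlap, reads of the 2 genes cannot be told apart if strand was not used. The 53 lie on 52 scaffolds. The 1 pair on a shared scaffold is on Scaffold00643, at 1434 to 1841 and 17509 to 20103, both on the plus strand with 1 gene between them. The part of length and of the spread in the results was not tested.

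**Figure D4:**
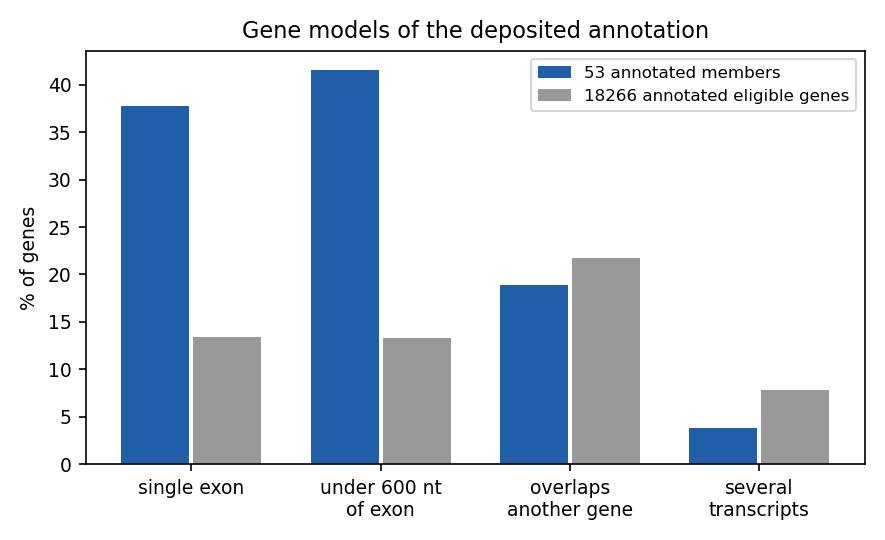
Share of genes (vertical axis, %) with 4 structural features in the deposited annotation, for the 53 members with a gene model (blue) and 18266 eligible genes with one (grey). Single-exon genes make up 37.7% and 13.4%, and genes under 600 nt of exon 41.5% and 13.3%.

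The members divided between the plant parts much as all genes did. In unstressed silicate-fed seedlings, 19 members were higher underground, 19 were higher in aerial parts and 22 were called in neither direction (limma over all 48 libraries and 26335 genes, of which 34.9% and 25.8% were called, against 31.7% of the members in each direction). The largest excess underground was in Glyur006288s00046750 (Scaffold06288, 3 to 543, plus strand, 2 exons), at 89.8, 71.9 and 57.3 FPKM underground, against 0.617 in aerial library 3 and listed at 0 in aerial libraries 1 and 2 (adjusted p = 1.19e-12). Glyur000025s00003309 (Scaffold00025, 171472 to 172684, minus strand, 2 exons) followed, at 700.5, 1366 and 193 against 10.7, 11.2 and 14.3 (log2 difference 5.46, SE 0.69, limma adjusted p = 1.65e-08). In the aerial direction, Glyur000019s00002111 (Scaffold00019, 167255 to 171076, minus strand, 3 exons) was at 6.98, 3.75 and 9.05 underground and 457, 508 and 886 in aerial parts (-6.35, SE 0.65, limma adjusted p = 1.79e-10). Glyur000844s00023264 (Scaffold00844, 15169 to 16158, minus strand, 1 exon) was at 6.68, 2.95 and 4.18 against 221, 304 and 298 (-5.66, SE 0.45, limma adjusted p = 4.24e-13). No library of either part overlapped the other for these 4 genes.

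**Figure D5:**
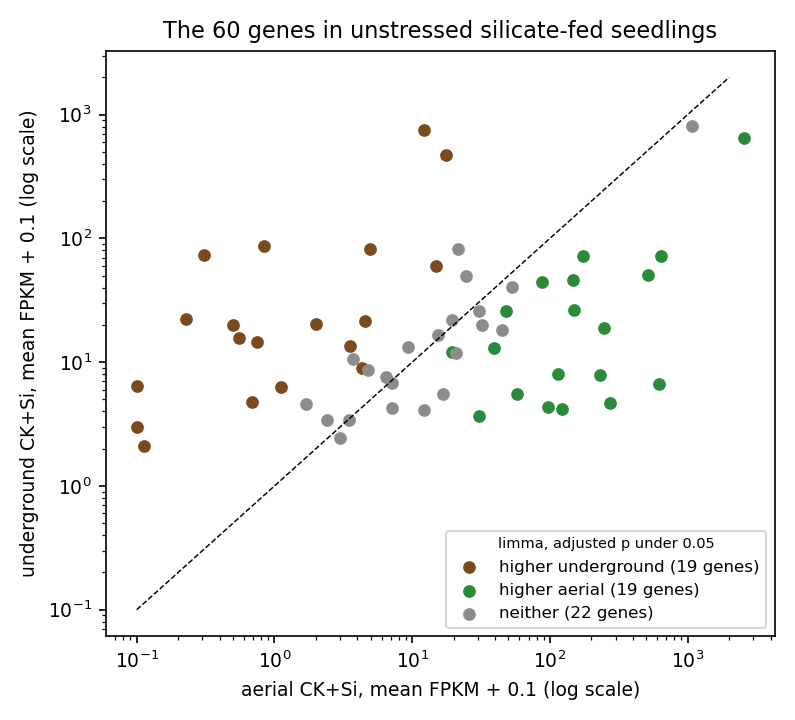
Mean FPKM + 0.1 of the 60 genes in aerial CK+Si (horizontal, log scale) and underground CK+Si (vertical, log scale), coloured by the limma call between the parts. The 19 genes higher underground and the 19 higher in aerial parts lie on either side of the dashed line of equal level.

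The marker level in underground libraries was set beside the values of the 19 members that are richer in aerial parts. Whether the 5 markers show carried-over RNA or expression underground was not tested. The aerial level of each condition times the marker share of a library came to a median of 7.91% of the underground D level in these 19, 0.110% in the 19 higher underground and 0.977% in the other 22, and it was above 5% of the D level in 13 members and of the S level in 7. The highest was 49.9%, in Glyur000019s00002111, which stood at 14.0, 1.59 and 2.77 FPKM in CK and 7.56, 20.2 and 19.2 in D. After subtraction of that product, a setting chosen after seeing the data, 59 of the 60 still met the conditions of the rule and the median rule value went from 0.93 to 0.99, but 35 of the 60 were among the top 60. SD library 2 had the highest marker level, so subtraction lowered SD as well. With silicate, the same 19 gave 10 of the 13 falls from D+Si to SD+Si. The aerial markers stood at 0.651, 1.21 and 0.930% in D+Si and at 1.05, 0 and 2.44% in SD+Si (summed level 6.24 to 10.7 and 0.0495 to 27.9 FPKM, with 0 and up to 4 of the 5 at 0), and without SD+Si library 2 or 3 there were 11 and 12 falls. Over all genes the falls in those fits numbered 1055 and 695, against 1145 in the full fit. They stood at 0.178, 0.242 and 0.224% in CK+Si and 1.10, 0.627 and 0.570% in S+Si.

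In aerial parts members were called in both directions. The 56 members that passed the minimum of 1 FPKM in at least 3 of 24 libraries were tested. In D 1 was called higher and 1 lower (1.66% of 23389 genes in each direction, 3.33% in either), in S 1 and 4 (2.99% and 3.97%, 6.96% in either), and in SD 2 and 13 (13.0% and 16.2%, 29.3% in either). SD against the mean of D and S gave 2 higher and 9 lower (10.1% and 14.2%, 24.3% in either). Without 1 library the numbers changed to 0 for D (without D library 2), 3 for S (without CK library 3) and 6 for SD against the single stresses (without SD library 3). Over all genes those fits called 441 (778 in the full fit), 1243 (1628) and 2513 (5675), so the drops are not particular to the members. The members' median change was 0.25 in D, -0.09 in S and -0.20 in SD, against 0.04, -0.01 and -0.05 over all genes tested. For SD against the mean of D and S it was -0.42, against -0.07 over all genes tested. In that comparison 45 members were below 0 and 11 above. Aerial CK libraries deviated from their mean together with the underground CK libraries of the same number, which the rule used (r from 0.245 to 0.298, a description across genes). For the other groups of the rule, r ran from 0.044 to 0.298 in D, 0.064 to 0.152 in S and -0.055 to 0.043 in SD. Aerial contrasts, also that of SD with the single stresses, are therefore not taken as independent of the choice.

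Glyur000949s00028887 was called lower in all 3 aerial stresses. It stood at 39.99, 69.9 and 46.5 FPKM in aerial CK and fell to 7.14, 13.5 and 25.97 in D (-1.81, SE 0.41, limma adjusted p = 0.0213). It was at 11.6, 22.5 and 14.9 in S (-1.62, SE 0.41, limma adjusted p = 0.0223) and at 17.4, 15.7 and 6.87 in SD (-1.95, SE 0.41, limma adjusted p = 0.0018). All 9 stress libraries lay below the 3 controls, although the D and S calls were each lost in 4 of 11 alternatives. Underground, the same gene was 1 of those chosen for its rise in D and S.

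Glyur000239s00017895 (Scaffold00239, 137042 to 138554, plus strand, 2 exons) also fell above ground. It was at 126, 134 and 81.4 FPKM in aerial CK, at 43.9, 46.5 and 55.9 in S (-1.18, SE 0.20, limma adjusted p = 0.00139) and at 38.6, 35.9 and 19.5 in SD (-1.85, SE 0.20, limma adjusted p = 3.86e-06). Neither stress overlapped the control. Glyur002794s00040886 rose in aerial D, from 343, 307 and 295 to 436, 622 and 548 (0.75, SE 0.18, limma adjusted p = 0.0242), a call lost in 5 of 11 alternatives. Glyur000031s00004361 (Scaffold00031, 143221 to 145333, minus strand, 6 exons, overlapping a gene on the other strand) rose in aerial SD, from 34.7, 45.3 and 44.1 to 82.4, 76.2 and 73.6 (0.90, SE 0.19, limma adjusted p = 0.00161), while its underground SD libraries were below its underground controls. Glyur003000s00038029 (Scaffold03000, 20121 to 20699, minus strand, 2 exons) was called higher in aerial S, but it is listed at 0 in CK library 3, and the call was lost in 4 of 11 alternatives, among them the one without that library (adjusted p = 0.0942).

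Against the mean of the single stresses, aerial SD was lowest for Glyur000025s00003309, at 1.39, 3.39 and 0.666 FPKM against 38.7, 23.1 and 60.04 in D and 13.4, 8.75 and 7.81 in S (-2.98, SE 0.52, limma adjusted p = 0.000775). This gene is richer underground. The 2 genes that met the definition of underground markers had, relative to underground CK+Si, a median of 5.70% in aerial D library 3, 1.03% or less in the other libraries without silicate, and 6.55% in aerial SD+Si library 2. Without D library 3 its call remained, as in all 14 alternatives. The next was Glyur001945s00040523, at 25.8, 24.5 and 27.3 in SD, 142, 117 and 86.3 in D, and 32.2, 60.5 and 132 in S (-1.68, SE 0.36, limma adjusted p = 0.00327), with all SD libraries lowest.

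With silicate, aerial SD+Si against the mean of D+Si and S+Si gave 2 members higher and 9 lower (3.98% and 4.11% of genes, 8.10% in either direction), and 8 of the 9 were among the members richer in aerial parts. Without SD+Si library 2 it was 0 and 5, and without library 3 it was 1 and 3. Over all genes those fits called 224 higher and 321 lower, and 337 and 436, against 932 and 962 in the full fit. Glyur001945s00040523 fell most, to 9.18, 29.1 and 13.3 FPKM from 130, 146 and 215 in D+Si and 130, 76.7 and 68.7 in S+Si (-2.87, SE 0.36, limma adjusted p = 0.000267). The same gene was the one that fell most from D+Si to SD+Si underground. Glyur000472s00019578 (Scaffold00472, 59522 to 61915, plus strand, 4 exons) went to 69.0, 54.1 and 73.0 from 148, 122 and 128 in D+Si and 86.5, 141 and 121 in S+Si (-0.91, SE 0.21, limma adjusted p = 0.0158), a call lost without SD+Si library 2 (adjusted p = 0.102). Of the 2 called higher, 1 was Glyur000025s00003309, named here after its values were seen because its aerial change without silicate had the other sign. It stood at 29.4, 122 and 32.9 in SD+Si against 5.35, 6.39 and 7.15 in D+Si and 35.8, 5.601 and 3.58 in S+Si (2.53, SE 0.52, limma adjusted p = 0.00741). Its S+Si and SD+Si libraries overlapped, and its highest value was in SD+Si library 2, which had the highest level of underground markers; their part in the change was not tested.

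The difference between salt-drought and the single stresses was itself compared between the parts in silicate-fed seedlings. Of 60 members 1 was called, with the more negative value underground, where 0.148% of 26335 genes were called in that direction and 0.0304% in the other. It was the new-gene row Glycyrrhiza_uralensis_newGene_11151, at 382, 155 and 202 FPKM in underground SD+Si against 470, 459 and 2082 in D+Si and 2025, 1420 and 421.5 in S+Si. In aerial parts it stood at 8207, 9100 and 8730 in SD+Si against 1382, 3083 and 2792 in D+Si and 1671, 3991 and 660 in S+Si. Salt-drought libraries were lowest underground and highest above ground, without overlap in either part, and the log2 difference between the parts was -4.14 (SE 0.82, limma adjusted p = 0.0289). The gene is richer in aerial parts, and the aerial markers stood at 1.05, 0 and 2.44% in underground SD+Si libraries 1 to 3; their part in its level was not tested. For the other 59 members no difference between the parts was called, in a comparison that called 47 of 26335 genes. The difference was below 0 in 47 of the 60 members and above 0 in 13. Its median was -0.38 on the log2 scale, against -0.06 over all genes tested. An unadjusted limma p under 0.05 was found in 15 of the 60 members and in 12.2% of all genes.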

How the data were processed

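The authors deposited 1 table of FPKM values per gene and library. TopHat2 and Cufflinks are named per the submitters' processing notes. Versions, strand handling and genome build are not given in the sources used here. Per the labels' protocols, both nanopore full-length cDNA and Illumina RNA libraries were prepared, and which gave the FPKM values is not stated. Coordinates are 1-based and come from the authors' deposited gene models, whose assembly is not named. Low values did not fall on whole fragments (34.8 to 53.3% within 0.1 of a whole number at the best step, against 20% by chance at a fixed step). Depth is therefore treated as unknown, and no count model was used.

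Values were analysed as log2(FPKM + 1) with limma 3.58.1 in R 4.3.3, with group means as terms and the trend and robust options. A gene was tested when 3 or more libraries of a fit reached 1 FPKM. Fits held all 24 libraries of a part or all 48, so the 12 libraries of the rule entered the spread of every fit with underground libraries. In all, 12 comparisons were made, none on a contrast the rule used. The script was tested on simulated data. A log2 change on this scale understates that of low genes.

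Named genes are at most 2 called members in each direction per comparison, those with the largest change, without overlap between groups and with a mean of at least 5 FPKM in 1 group. The 2 members with the largest rule value and the one with the smallest adjusted p in SD+Si against D+Si were added. Aerial and underground markers are genes at 100 FPKM or more in CK+Si of 1 part, 30 or more in its other groups and 0.5 or less in CK+Si of the other part. The members, lists and comparisons were chosen with earlier results of these data known.

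Replicate numbers come from the titles. Over 56 pairs of groups within a part, same-numbered libraries deviated together with r from -0.374 to 0.328, and in 0 pairs were all 3 correlations above 0.1, so the numbers were not taken as pairs. Alternatives were a pseudocount of 0.1, no filter, rescaled libraries, only the groups compared, a replicate block and leaving out each library.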

Additional observations from a re-analysis of the deposited data

Results flagged for a closer look

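Glycyrrhiza_uralensis_newGene_11151 drew attention because its salt-drought effect with silicate differed between the parts (log2 difference -4.14, limma adjusted p = 0.0289). The call was lost with only the compared groups in the fit (adjusted p = 0.0779), and without aerial SD+Si library 2 or 3 or underground SD+Si library 2 or 3 (adjusted p from 0.0569 to 0.0626). Over all genes, 8 were called higher and 39 lower in this comparison, and 20 and 39 after rescaling of the libraries. The row has no coordinates, so its length, strand and overlap with other genes are unknown here. Which of these bears on its level was not tested.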

How the results depend on the processing

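Numbers here are members called, of 60. Of the rule's choice, 56 members were chosen again after rescaling, 48 with a pseudocount of 0.1, 57 with listed zeros as missing, 35 after subtraction of the aerial-marker share and 32 to 55 when 1 library was left out. With only the compared groups in the fit, the numbers were 6 for SD+Si against D+Si (13 in the full fit), 0 for SD+Si against S+Si (1), 1 for D+Si against CK+Si (0), 0 for aerial D against CK (2), 1 for aerial S against CK (5) and 0 for the difference between the parts (1). Over all genes these fits called 427 (1829 in the full fit), 1 (116), 123 (251), 110 (778), 226 (1628) and 29 (47), and also 2184 (3364) for SD+Si against CK+Si and 3224 (5675) for aerial SD against the single stresses. SD+Si against S+Si also went to 0 with no filter and with the replicate block. Under the replicate block the other numbers stayed within 1.5 times, at 12 for SD+Si against D+Si, 11 for S+Si against CK+Si and 16 for SD+Si against CK+Si. With 1 library left out, the ranges underground with silicate were 9 to 12 for SD+Si against D+Si, 0 to 3 against S+Si and 12 to 16 against CK+Si, 0 to 0 for D+Si and 9 to 13 for S+Si against CK+Si (9 without CK+Si library 1). In aerial parts they were 0 to 3 for D (0 without D library 2, 1 without D library 3, with 441 and 656 calls over all genes against 778), 3 to 7 for S (3 without CK library 3) and 10 to 15 for SD against CK. They were 6 to 12 for SD against the single stresses (6 without SD library 3), 4 to 12 with silicate (5 and 4 without SD+Si library 2 or 3), 0 to 2 for the difference between the parts and 36 to 40 for the level between the parts. The cause was not tested. Depth is unknown, so a call missed for a low gene cannot be told from a lack of fragments.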
